A study of Mus musculus with 5 samples.

Results

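Some promoters of protein-coding genes carried an acetylated-histone peak in exactly 2 of the 5 ChIPseq libraries of TM cells, Wildtype 1 and PDH_Mutant 3, which have the longest peak lists of the series. Peaks of the 5 lists were merged where they shared at least 1 bp, which gave 18410 regions. A region was kept where a peak of Wildtype 1 and a peak of PDH_Mutant 3 contributed to it, no other library did, and it lay within 3000 bp of the start of a protein-coding transcript. This left 767 regions of the 8343 at coding promoters, or 9.19%. Counted by gene, 852 coding genes had a promoter peak in both of these lists and in no other library. Of these genes, 833 had a start within 3000 bp of one of the 767 regions. These promoters were chosen by the presence and absence of peaks in the 5 lists, so that presence is not a finding here, and since they hold a single WT and a single mutant library, they carry no contrast between the genotypes.

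TM cells are CD8+ T cells driven toward a memory state in vitro: the methods describe OT-I cells activated with OVA peptide and then kept in IL-15, and splenic T cells are named as the source for ChIPseq. Wildtype (n = 2) cells have intact pyruvate dehydrogenase. PDH_Mutant (n = 3) cells, TPdh-/- in the study, come from mice with the floxed allele of B6.129P2-Pdha1tm1ptl/J crossed to a CD4-Cre transgene, so the deletion is made in T cells that have passed through a stage with an active Cd4 promoter, CD8+ cells included. The study's legend gives more samples per condition than the libraries used here. The methods give a single age range for the mice of the study and state that both males and females were used. The age and sex of the mice behind each library, and whether animals were pooled, are not given in the labels. Chromatin was precipitated with an antibody against acetylated histone lysine (the labels' description names K18), and each library was made from 50 ng of ChIP DNA with 15 PCR cycles and sequenced to no fewer than 37 M reads of 51 bases. The lists hold peaks and not reads, so how deeply each was sequenced is unknown.

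Acetyl groups are placed on histone lysines by acetyltransferases, which take them from acetyl-CoA, and are removed by deacetylases and sirtuins. Acetylation loosens the contact between histone and DNA and offers a docking site for bromodomain proteins, and it is typically found around the start sites of active genes. Many promoters of broadly expressed genes are rich in CpG dinucleotides, while tissue-restricted genes more often have CpG-poor promoters. Pyruvate dehydrogenase makes acetyl-CoA in mitochondria, from where it can reach the nucleus by way of citrate.

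The lists differed in length. They held 15962 peaks in Wildtype 1, 8859 in Wildtype 2, 4920 in PDH_Mutant 1, 5419 in PDH_Mutant 2 and 9418 in PDH_Mutant 3, and the smallest −log10 q in each was between 1.00 and 1.03. Promoters of T cell markers had a peak for 7 of 8 genes in Wildtype 1, 6 in Wildtype 2, 2 in PDH_Mutant 1, 5 in PDH_Mutant 2 and 6 in PDH_Mutant 3, with Lck and Lat covered in all 5 and Cd2 in none. Cd8b1 was covered in all 5 libraries and Cd8a in Wildtype 1 alone. B cell markers had a peak at 1 of 6 promoters, in Wildtype 1 alone, and the 4 natural killer cell markers had none. Of 7 myeloid markers, Spi1 and Cd68 were covered in all 5 libraries and Fcgr3 in Wildtype 1, Wildtype 2 and PDH_Mutant 3. Cd4 had a peak in both Wildtype libraries and Zbtb7b in Wildtype 1 alone. Of 6 erythroid markers, Klf1 was covered in Wildtype 1, Wildtype 2 and PDH_Mutant 3. No gene of the 7 marker lists was reached in Wildtype 1 and PDH_Mutant 3 only. That pattern was found at 9.28% of all coding genes with a promoter peak. The marker lists hold 2 to 8 genes each, so their count of 0 is not read as a trait of the set. The deleted gene Pdha1 had a promoter peak in Wildtype 1 alone, which says nothing of the deletion itself.

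Promoter sequence is shown first, because its CpG content is what these promoters can be compared on without the peak calls. The promoters are 3 of the 12 strongest in the set (ranked below), taken in order, whose 250 bases before the start overlap no annotated exon. All are GRCm38, 5′ to 3′ on the strand of the gene, with CpG dinucleotides in capitals. E130311K13Rik is at chr3:63929473-63929722 (minus strand), Gosr1 at chr11:76763580-76763829 (minus) and Ppp2r5b at chr19:6235873-6236122 (minus).
E130311K13Rik: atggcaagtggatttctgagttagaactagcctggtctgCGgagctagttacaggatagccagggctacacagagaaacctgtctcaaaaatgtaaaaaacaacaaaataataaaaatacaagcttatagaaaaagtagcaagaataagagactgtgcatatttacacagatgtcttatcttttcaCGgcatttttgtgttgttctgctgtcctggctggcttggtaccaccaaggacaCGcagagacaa
Gosr1: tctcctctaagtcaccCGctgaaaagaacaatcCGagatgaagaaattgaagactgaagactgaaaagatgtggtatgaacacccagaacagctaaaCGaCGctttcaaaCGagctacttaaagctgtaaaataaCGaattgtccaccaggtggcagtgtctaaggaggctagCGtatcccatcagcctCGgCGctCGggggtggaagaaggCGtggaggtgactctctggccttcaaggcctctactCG
Ppp2r5b: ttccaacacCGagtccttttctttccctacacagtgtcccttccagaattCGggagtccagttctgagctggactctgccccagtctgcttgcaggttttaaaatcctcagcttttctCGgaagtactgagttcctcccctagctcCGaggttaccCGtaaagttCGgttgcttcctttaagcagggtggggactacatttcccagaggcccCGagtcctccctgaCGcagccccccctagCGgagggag

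The CpG number in these 250 bases was 3 for E130311K13Rik, 12 for Gosr1 and 9 for Ppp2r5b. GC content was 40.4%, 49.6% and 55.2% in the same order. The acetylated region covered all 250 bases shown at Ppp2r5b, 114 of them at Gosr1 and 3 at E130311K13Rik, where the region lay almost wholly downstream of the start. Of the motifs listed further on, Gosr1 held a RUNX core, and the others held none.

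For comparison, promoters of strong regions found in all 5 libraries were taken in order of mean percentile with the same limits. The first 4 regions in that order lay at the predicted genes Gm10718, Gm11168 and Gm10720 on chromosome 9 and consisted of repeat sequence for 96.6% to 98.0% of their length, so regions over 50% repeat were passed over, a limit added after these values were seen. No region of the set was over 50% repeat (highest 49.2%), against 9 of the 1924 regions with a peak in all 5 libraries. The promoters that followed are Clk1, a kinase of splicing factors, at chr1:58424067-58424316 (minus strand), and Zfp335, a zinc finger protein, at chr2:164911758-164912007 (minus).
Clk1: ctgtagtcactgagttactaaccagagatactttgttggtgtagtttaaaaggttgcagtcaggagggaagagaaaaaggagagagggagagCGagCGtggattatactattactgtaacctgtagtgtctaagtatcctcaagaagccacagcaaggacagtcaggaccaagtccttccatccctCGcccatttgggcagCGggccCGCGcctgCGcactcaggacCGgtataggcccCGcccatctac
Zfp335: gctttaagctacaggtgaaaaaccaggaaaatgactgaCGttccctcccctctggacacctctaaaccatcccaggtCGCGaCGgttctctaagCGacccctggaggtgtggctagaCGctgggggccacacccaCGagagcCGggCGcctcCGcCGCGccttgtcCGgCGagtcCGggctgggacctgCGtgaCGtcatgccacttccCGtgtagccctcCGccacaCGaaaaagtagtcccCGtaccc

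These held 9 and 21 CpG dinucleotides. The 5 sequences therefore do not separate by class: Gosr1 had more CpG than Clk1, and E130311K13Rik had the fewest.

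The combination of Wildtype 1 and PDH_Mutant 3 was the fourth most frequent at coding promoters. Wildtype 1 alone had 2364 regions, all 5 libraries 1924, and Wildtype 1, Wildtype 2 and PDH_Mutant 3 together 894. Each of the 9 other pairs of libraries held 1 to 450 regions, the highest for Wildtype 1 with Wildtype 2. The 767 regions made up 9.47% of the 8099 coding-promoter regions of Wildtype 1 and 14.9% of the 5131 of PDH_Mutant 3. PDH_Mutant 3 covered 1765 coding-promoter regions that neither of the other PDH_Mutant libraries covered. Wildtype 1 had a peak at 1661 of these and Wildtype 2 at 908. Wildtype 1 in turn covered 3653 regions that Wildtype 2 lacked, of which 1139 had a peak in PDH_Mutant 3, 376 in PDH_Mutant 2 and 250 in PDH_Mutant 1. These counts follow the order of list length.

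**Figure D1:**
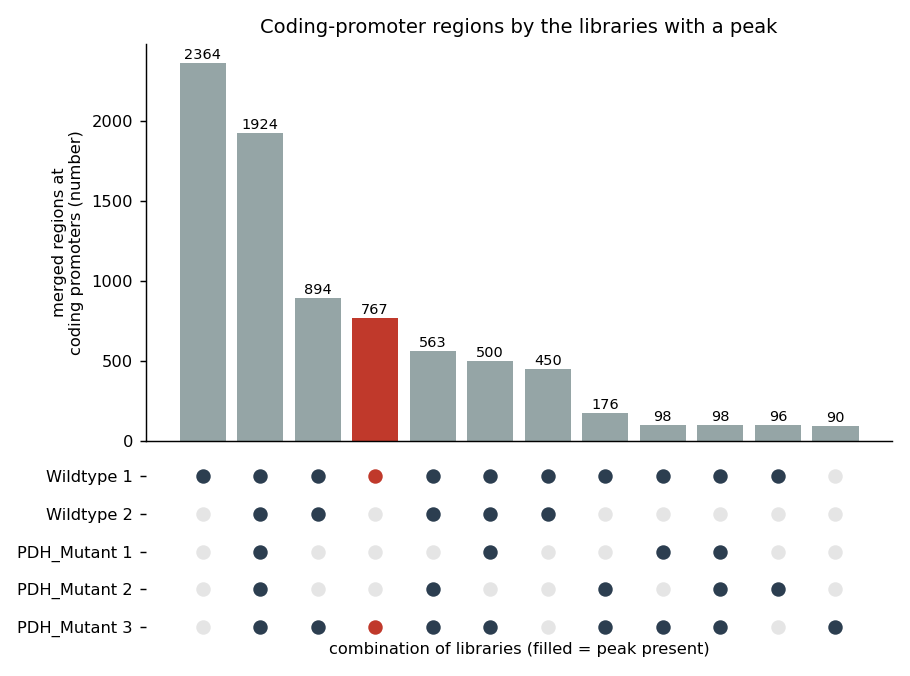
Number of merged regions at coding promoters (vertical axis) for the 12 most frequent combinations of libraries, with filled dots below each bar for the libraries that had a peak. The bar of Wildtype 1 and PDH_Mutant 3 only, in red, holds 767 regions and ranks behind Wildtype 1 alone (2364), all 5 libraries (1924) and both Wildtype libraries with PDH_Mutant 3 (894).

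Where the pattern was found anywhere in the genome it held 1384 regions, so 55.4% of them were at coding promoters. In the set, 766 of 767 regions were made of a single peak from each list. The Wildtype 1 peak covered a median 99.3% of the PDH_Mutant 3 peak, and the PDH_Mutant 3 peak covered a median 74.2% of the Wildtype 1 peak. Peaks were wider in Wildtype 1 at 616 regions, with a median of 1049 bp (quartiles 818 and 1369) against 762 bp (636 and 1002) in PDH_Mutant 3. The nearest peak of Wildtype 2, PDH_Mutant 1 or PDH_Mutant 2 lay at a median distance of 37764 bp and never closer than 2508 bp. Only 5 regions had such a peak within 3000 bp.

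The peaks came from the whole range of both lists. Rank is given as the percentile of a peak's −log10 q within its own list. The lists differ in length, and a longer weak tail raises the percentile of a peak, so percentiles of Wildtype 1 and PDH_Mutant 3 are given side by side and not as a difference in strength. The median percentile was 54.8 in Wildtype 1 (quartiles 35.4 and 71.1) and 35.2 in PDH_Mutant 3 (17.8 and 57.6). With every list cut to 4920 peaks, the medians of the 219 regions then found were 79.7 and 69.0. These percentiles were still those of the full lists, so the cut itself raises the medians and they do not correct for length. In the weaker 50% of the list were 337 of the Wildtype 1 peaks (43.9%) and 517 of the PDH_Mutant 3 peaks (67.4%). In the strongest 10% were 33 and 13. Coding promoters with a peak in all 5 libraries had medians of 88.7 and 81.3, and those lacking only PDH_Mutant 1 and 2 had 66.1 and 47.1. Across the 767 regions, the percentiles of the lists had a Spearman rho of 0.58, against 0.77 across the 1924 regions of all 5. Regions are not independent replicates, and both values describe this pair of libraries. In bulk chromatin, fewer cells with the mark and less of it per cell cannot be told apart.

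**Figure D2:**
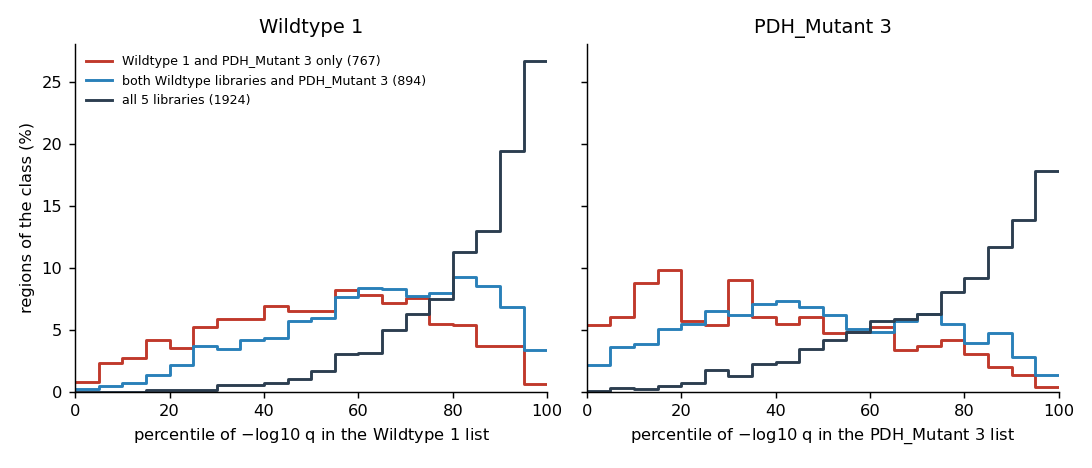
Share of the regions of a class (vertical axis, %) in steps of 5 percentiles of −log10 q within the Wildtype 1 list (left) and the PDH_Mutant 3 list (right). Regions of Wildtype 1 and PDH_Mutant 3 only (red, 767) center on a median of 54.8 on the left and 35.2 on the right, while regions of all 5 libraries (dark) pile up at the strong end with medians of 88.7 and 81.3.

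Fold enrichment over the background that MACS2 estimated was less different between the classes than q. Its median was 2.70 in Wildtype 1 and 2.55 in PDH_Mutant 3 for the set, and 2.98 and 2.92 for regions of all 5 libraries. It was higher in Wildtype 1 at 449 of 767 regions. The median −log10 q was 4.36 and 2.64 for the set against 9.61 and 6.23. Regions of all 5 libraries were also wider, with a median of 1546 bp against 1143 bp. For peaks of like fold, q differed between the lists: among peaks of 2.2- to 2.4-fold enrichment, the median −log10 q was 2.66 in Wildtype 1, 2.24 in Wildtype 2, 1.94 in PDH_Mutant 1, 1.98 in PDH_Mutant 2 and 2.18 in PDH_Mutant 3, and their median −log10 p lay between 4.83 and 5.07. The part of this difference, and of read depth, in the choice of the 767 regions was not tested.

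Along the Wildtype 1 list, the share of these regions among coding promoters was 7.87% in the weakest decile of the list, 13.8% in the fifth decile and 2.58% in the strongest. Regions of both Wildtype libraries with PDH_Mutant 3 were likewise most frequent in the middle of the list. Their share was 1.97% in the weakest decile, 15.2% in decile 7 and 7.11% in the strongest. Regions of Wildtype 1 alone went from 83.9% in the weakest decile to 1.09% in the strongest, and regions of all 5 libraries from 0 of 305 to 69.4%. The set therefore came from all strengths, with 206 regions above the median of both lists. At the lower edge, the weakest −log10 q in PDH_Mutant 3 was 1.01, and 237 regions had a PDH_Mutant 3 peak under 2. Such regions lie close to the limit of the peak calls.

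**Figure D3:**
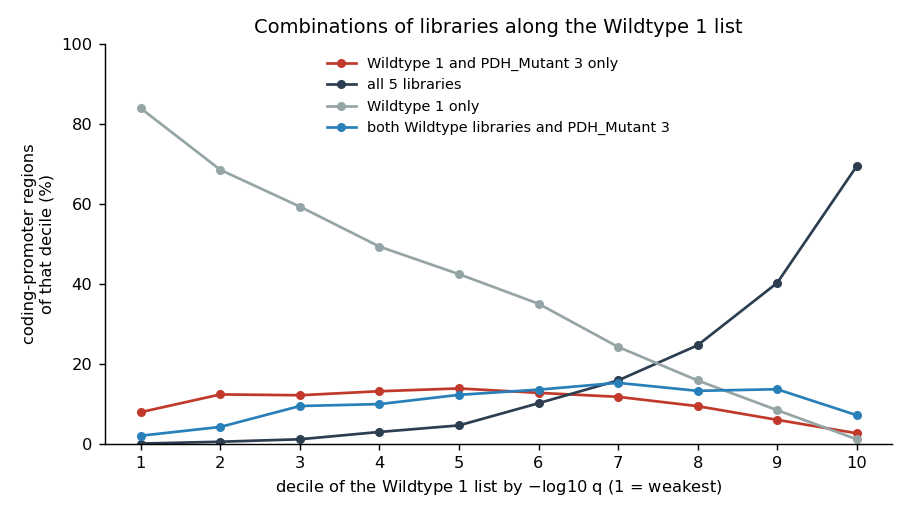
Share of coding-promoter regions (vertical axis, %) with each combination of libraries in every decile of the Wildtype 1 list, ordered by −log10 q from weakest (1) to strongest (10). The red line of Wildtype 1 and PDH_Mutant 3 only stays between 2.58% and 13.8%, while Wildtype 1 alone falls from 83.9% to 1.09%.

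The regions lay on the start sites. The start of the nearest coding transcript was inside the region at 628 of 767 (81.9%), and the midpoint of the region was a median 188 bp from that start. Midpoints were within 500 bp at 611 regions, between 500 and 1000 bp at 70, between 1000 and 2000 bp at 52 and farther at 34. They were on the transcribed side at 465 (60.6%). Regions of all 5 libraries contained the start more often, at 91.7%, and regions of Wildtype 1 alone less often, at 71.2%. The median width was 1546 bp in the former and 845 bp in the latter, and the part of width in this difference was not tested. At the limit of 3000 bp, the farthest regions kept were those of Sycp3 (2990 bp), Lgals1 (2967 bp) and Add3 (2889 bp), and the nearest left out were those of Sertad1 (3035 bp), 2410004B18Rik (3078 bp) and Pik3r5 (3079 bp).

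**Figure D4:**
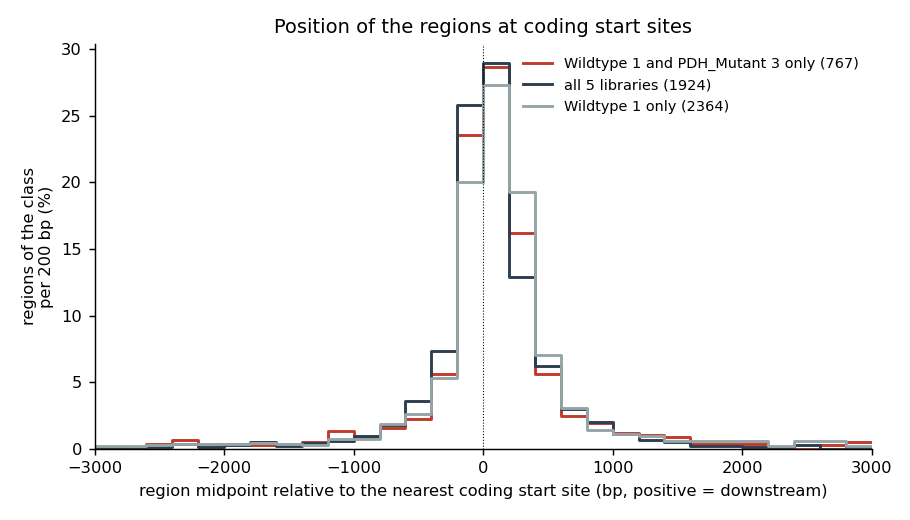
Share of regions (vertical axis, %) by the position of their midpoint relative to the nearest coding start site (horizontal axis, bp in steps of 200, positive downstream). The 3 classes share a peak just downstream of the start. Midpoints were downstream at 60.6% of the regions of Wildtype 1 and PDH_Mutant 3 only, 56.8% of those of all 5 libraries and 64.8% of those of Wildtype 1 alone.

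Most were CpG-rich promoters. A promoter was counted as CpG-rich where a window of 500 bp within 1000 bp of the start had a GC content over 50% and a ratio of observed to expected CpG over 0.6. This held at 677 of 767 regions, or 88.3% (95% exact binomial interval 85.8% to 90.5%, for counting error only). The share was 86.9% (85.3% to 88.3%) in regions of all 5 libraries, 84.2% (82.6% to 85.6%) in Wildtype 1 alone, 83.6% (81.0% to 85.9%) where only PDH_Mutant 1 and 2 lacked a peak and 78.2% (74.1% to 82.0%) where all 3 PDH_Mutant libraries did and both Wildtype libraries had a peak. The interval of the set overlapped those of all 5 libraries and, at its edge, of regions lacking only PDH_Mutant 1 and 2. Those of Wildtype 1 alone and of both Wildtype libraries only lay below it. Regions are not independent replicates, so these intervals do not test a difference between classes. By a stricter definition (GC over 55%, ratio over 0.75) the share was 78.1% in the set and 79.6% in all 5 libraries. It was 70.8% in Wildtype 1 alone, 71.8% where only PDH_Mutant 1 and 2 lacked a peak and 66.7% in both Wildtype libraries only. Counted by gene, 89.3% of the 852 genes had a CpG-rich promoter, against 40.0% of the 12676 genes with no promoter peak in any library. The median GC content of the set was 58.2% and the median CpG ratio 0.707, against 56.2% and 0.709 for all 5 libraries.

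The 90 regions at promoters that were not CpG-rich differed in several respects from the 677 others. Their midpoints lay a median 615 bp from the start against 173 bp, and the start was inside the region at 55.6% against 85.4%. Their median percentile was 37.7 in Wildtype 1 and 25.1 in PDH_Mutant 3, against 57.0 and 36.3. The strongest of them was Gosr1, a Golgi SNARE, at percentiles 97.4 and 89.3. It was followed by Sh2d3c, an adaptor of lymphocyte signalling, at 88.9 and 78.3, with the midpoint of its region 2504 bp upstream of the start, and by Hsh2d, an adaptor expressed in blood cells, at 78.3 and 83.7. These 3 genes were chosen as the strongest after their values were seen.

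Short sequence motifs were counted on both strands from 250 bases before to 50 after the most upstream coding start of each gene, and no motif contains another. The GC box (GGGCGG) was found at 64.8% of the 852 promoters, 58.6% of those with a peak in all 5 libraries, 32.8% of those with no peak and 44.9% of all coding genes. Promoters of Wildtype 1 alone held it at 63.8%, those of both Wildtype libraries only at 63.0% and those of both Wildtype libraries with PDH_Mutant 3 at 58.5%. The CCAAT box (CCAAT) was at 39.3%, near the 38.8% of all genes. An ETS core (CCGGAAGT) was at 8.92% of the 852 promoters, 11.6% of those of all 5 libraries and 4.93% of all. An NRF1 core (GCATGCGC) was at 7.75%, against 5.31% and 3.80%, and a CRE (TGACGTCA) at 5.16%, against 4.12% and 2.50%. Promoters of both Wildtype libraries with PDH_Mutant 3 held these 2 motifs at 7.23% and 3.47%. The YY1 core (AAGATGGC) was at 5.52%, against 5.09% in all 5 libraries and 2.96% of all genes, and the E-box (CACGTG) at 9.27%, against 9.52% and 7.78%. A further 3 motifs were scarcer than over all genes: the TATA box (TATAAA) was at 6.69% against 12.5%, the RUNX core (TGTGGT) at 12.1% against 15.0% and the AP-1 site (TGACTCA) at 2.35% against 4.45%. Promoters of all 5 libraries had them at 7.77%, 12.5% and 2.94%, and those of Wildtype 1 alone at 7.37%, 14.0% and 2.80%, so the scarcity was shared with other promoters that had a peak. A match of letters is a description and not a bound site, and motifs with CpG follow the CpG content of the promoter.

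By gene, 892 coding genes had a start within 3000 bp of one of the 767 regions. Of these, 833 were reached by no other library. The other 59 also had a peak of a further library within 3000 bp of one of their starts, 20 of them in all 5. Another 19 genes were reached by a peak of each of both lists and by no other library without a region of the set, since their peaks did not overlap or belonged to a larger merged region. Together these gave the 852 genes, which is 3.90% of the 21853 coding genes tested and 9.28% of the 9177 with a promoter peak in any library. Lists of genes are read against these shares below. A single coding gene was in reach at 644 regions, 2 genes at 118 and 3 or more at 5. At 83 regions (10.8%) a pair of genes started within 1000 bp of each other in opposite directions, against 13.1% of the regions of all 5 libraries.

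The genes were spread over the genome. Among genes with a promoter peak, the share reached by the pair of libraries only ranged between 7.02% on chromosome 10 and 11.4% on chromosome 9 among the autosomes. On chromosome X it was 8.56%, or 16 of 187 genes, and on chromosome Y it was 0 of 4. Only Add3, which encodes a membrane skeleton protein, and Rangap1, the GTPase-activating protein of Ran, were the nearest gene of more than 1 region.

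The 12 strongest regions by mean percentile of both lists stood at a percentile of 86.2 or higher in each list. Srcap, the ATPase that places histone H2A.Z, ranked first with a region of 801 bp at chr7:127511706-127512506, at percentile 96.3 in Wildtype 1 and 94.8 in PDH_Mutant 3, where fold enrichment was 3.95 and 3.80. Mrpl54, a protein of the large mitochondrial ribosomal subunit, followed at chr10:81266339-81267137 with percentiles 91.6 and 97.6 and folds of 3.94 and 4.49. Wdr62, a spindle pole protein, came next at chr7:30280395-30281385 with percentiles 91.8 and 96.8. Then came E130311K13Rik (96.1 and 91.9), the actin-binding protein gene Twf1 (94.9 and 92.1) and Gosr1 (97.4 and 89.3). Ppp2r5b, a regulatory subunit of protein phosphatase 2A, stood at 92.7 and 91.3. Fbxl5, the iron-sensing subunit of a ubiquitin ligase, stood at 89.3 and 93.6, but a Wildtype 2 peak lay within 3000 bp of another of its starts.

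The last 3 of the 12 were Prdm4, a zinc finger protein, at 94.3 and 87.8, Spopl, an adaptor of cullin 3 ubiquitin ligases, at 94.6 and 86.2, and Rpap2, a phosphatase of RNA polymerase II, at 91.4 and 88.1. In these 12 the fold was between 3.48 and 4.35 in Wildtype 1 and between 3.45 and 4.49 in PDH_Mutant 3. They were picked as the strongest, and the medians of the whole set were 2.70 and 2.55. At 11 of the 12, no other library had a peak within 3000 bp of any coding start of the gene. The nearest peak of another library was between 5138 bp (Ppp2r5b) and 414331 bp (Spopl) away.

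Gene lists of pathways and families were counted next, 40 in all, without a test. The 4 lists around acetyl-CoA and histone acetylation held 0 to 3 genes reached by the pair of libraries only. They had 10 to 14 genes with a peak in any library, and the share over all genes with a peak was 9.28%. In lists this short a single gene moves the share by several points, so their counts are not read as a difference between lists. None of the 14 genes of pyruvate dehydrogenase and the pyruvate carriers was reached in Wildtype 1 and PDH_Mutant 3 only, while 2 had a peak in all 5 libraries and 5 in Wildtype 1 alone. None of the 12 genes of other acetyl-CoA supply was, nor any of the 15 histone acetyltransferases, of which 5 had a peak in all 5 libraries. Of 18 histone deacetylases and sirtuins, 3 were reached (16.7% of the list and 21.4% of its 14 genes with a peak), the largest share of the 40 lists. Hdac10, a polyamine deacetylase of the histone deacetylase family, was at percentile 72.7 in Wildtype 1 and 81.5 in PDH_Mutant 3. The NAD-dependent deacetylases Sirt2, of the cytosol, and Sirt3, of mitochondria, were at 62.7 and 27.0, and at 62.6 and 1.75. The Sirt3 peak of PDH_Mutant 3 thus ranked among the weakest of its list.

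In energy metabolism, 1 of 20 genes of the tricarboxylic acid cycle list was reached, Idh1, the cytosolic isocitrate dehydrogenase, at percentiles 63.6 and 74.1 and folds of 2.98 and 3.21. Of 23 glycolysis genes, the triosephosphate isomerase Tpi1 (52.1 and 52.4) and the lactate exporter Slc16a3 (51.6 and 19.2) were reached. Of 20 genes of fatty acid oxidation, the acyl-CoA dehydrogenases Acadvl (47.0 and 37.6) and Acadm (31.3 and 32.0) were. The midpoint of the Acadvl region lay 2786 bp upstream of the Acadvl start, and another coding start was nearer to that region. Of 94 genes of the respiratory chain list, 8 were reached, or 10.8% of its 74 genes with a peak. They were led by Ndufv1 (81.0 and 77.1) and Ndufb8 (85.3 and 35.5), both of complex I, and Cox6c (84.5 and 33.5) of cytochrome oxidase. These shares lay on both sides of the 9.28% over all genes with a peak.

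Lists of T cell genes held 1 to 3 genes each that the pair alone reached. Of 32 genes of the T cell receptor and its signalling, 31 had a promoter peak in some library, and 1 of these (3.23%) was reached by the pair alone. Of 19 costimulatory and inhibitory receptors, Cd28 (53.8 and 34.6) and Cd160 (27.7 and 1.23) were reached. Of 20 memory-associated genes, the transcription factor gene Tcf7 was reached (36.9 and 20.2), and of 20 effector-associated genes, the regulator gene Id2, also without a region of the set, where the Wildtype 1 peak (percentile 29.3) covered the start and the PDH_Mutant 3 peak (28.8) ended short of it without touching the other. Of 37 cytokine receptor and JAK-STAT genes, 3 were reached: the interleukin-4 receptor gene Il4ra (57.6 and 37.1), the signal transducer gene Stat5a (49.5 and 36.3) and the interleukin-18 receptor gene Il18r1 (13.9 and 40.0). In the BCL2 family of 19, the death-promoting genes Bcl2l11 (65.5 and 43.6) and Bax (53.5 and 28.5) were. In each pair of percentiles Wildtype 1 comes first. Among genes with a peak, the shares were 15.4% of 13 costimulatory and inhibitory receptors, 5.26% of 19 memory-associated and 8.33% of 12 effector-associated genes. They were 9.68% of 31 cytokine receptor and JAK-STAT genes and 15.4% of 13 BCL2 family genes. The share over all genes with a peak was 9.28%. A single gene moves the shares of such short lists by several points, so they are not read as differences.

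Housekeeping families were counted in the same way, beside the 9.28% over all genes with a peak. Of 83 cytosolic ribosomal protein genes, 77 had a promoter peak and only Rpl22 (74.1 and 51.3) was reached by the pair alone, or 1.30% of those with a peak. Of 84 splicing factor genes, 32 had a peak in all 5 libraries. Hnrnpd and Prpf39 were in the set, or 2.63% of the 76 with a peak. Of 67 DNA repair genes, Xrcc2 (62.1 and 55.2) was reached, or 1.85% of the 54 with a peak. Of 45 DNA replication genes, Pole (55.9 and 12.8), the catalytic subunit of polymerase epsilon, was reached, or 2.50% of the 40 with a peak. The lists of RNA polymerase and mediator subunits had 7 of 58, or 14.6% of those with a peak, led by Med30 (82.9 and 84.3), Polr2k (78.9 and 62.9) and the X-linked Med14 (58.4 and 41.6). Autophagy had 4 of 30, where 25 had a peak. They were Atg5 (83.6 and 81.1), which is needed to lipidate LC3, and Wipi1, Gabarap and Ulk1. Aminoacyl-tRNA synthetases had 4 of 37, or 14.3% of the 28 with a peak, among them the mitochondrial enzymes Iars2 (60.1 and 75.3) and Yars2 (35.2 and 35.7). No list was tested, and with so few genes in each a share moves by several points with a single gene.

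Among larger families, shares of genes with a peak lay on both sides of 9.28%. The set held 22 of 465 zinc finger genes, or 7.86% of those with a peak, led by Zfp653 (80.3 and 90.3), Zfp623 (88.4 and 79.2) and Zfp949 (92.5 and 73.0). It held 18 of 371 solute carriers (12.9% of those with a peak), among them Slc18a1, Slc38a6 and Slc35d1, and 12 of 147 genes of vesicle tethering and sorting (10.7%), led by the exocyst subunit gene Exoc8 (95.3 and 73.3). The cilia and centrosome list had 8 of 105 (11.0%), led by the kinesins Kif22 and Kif13a, the ubiquitin ligase families 10 of 230 (7.35%), the proteasome 4 of 50 (8.70%), led by Psmd11 (76.9 and 67.2), and mitochondrial ribosomal proteins 4 of 78 (6.45%). Small GTPases of membrane traffic (3 of 105) and protein phosphatases (3 of 116) had lower shares, at 4.41% and 4.17% of those with a peak.

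Further lists had a single gene each reached by the pair alone: Rictor (58.9 and 78.7), the defining subunit of mTOR complex 2, among 24 mTOR genes, Otud7a among 68 deubiquitinases and Map3k14 among 49 mitogen-activated protein kinases. Map3k14 is among the 19 genes without a region of the set, with peaks 2889 bp (Wildtype 1) and 2171 bp (PDH_Mutant 3) from its start. Families of genes used in other tissues mostly had no promoter peak in any library, as for 1062 of 1133 olfactory receptor genes. Of the 71 olfactory receptor genes with a peak, 4 were reached by the pair alone. This was 5.63%, against 9.28% over all genes with a peak. The strongest were Olfr530 (36.2 and 16.4), Olfr56 (43.9 and 6.63) and Olfr524 (36.9 and 4.85). No vomeronasal receptor, keratin, homeobox cluster or protocadherin gene was reached. Only 8, 2, 2 and 2 genes of these families, in that order, had a peak in any library, so their counts of 0 are not read as a trait of the set. None of the 20 genes of other tissues had a peak in any library.

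**Figure D5:**
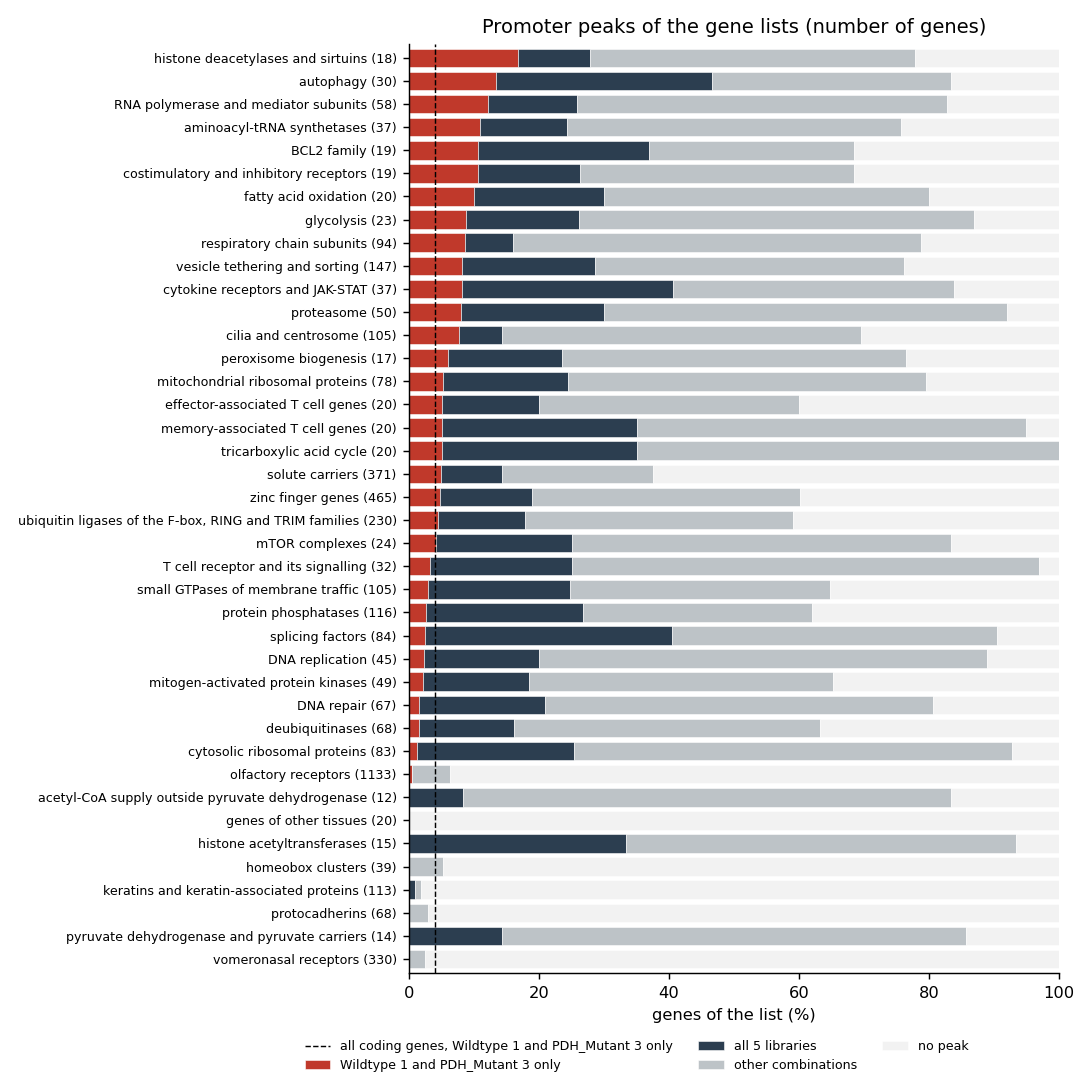
Share of the genes of each list (horizontal axis, %, number of genes in brackets) with a promoter peak in Wildtype 1 and PDH_Mutant 3 only (red), in all 5 libraries (dark), in other combinations (gray) or in none (pale). The dashed line marks the 3.90% of all coding genes. Red bars reach 16.7% for the 18 histone deacetylases and sirtuins and are missing for 8 of the 40 lists.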

How the data were processed

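The authors aligned reads to GRCm38/mm10 with BWA-mem (0.7.17), kept uniquely mapping reads, removed blacklisted regions with SAMtools (1.15.1) and called broad peaks with MACS2 (2.2.6) in each library. No input control is named in the sources used here. The deposited lists give each peak's fold enrichment (a ratio over the background MACS2 estimated), −log10 p and −log10 q, and a score that was not used. From there, peaks were merged at an overlap of 1 bp and placed on protein-coding transcript starts of GENCODE M21 (GRCm38, 21853 coding genes) with Python 3.11.15, pandas 2.3.3, numpy 2.4.6, scipy 1.17.1 and pysam 0.24.0. Sequence was read from the GRCm38.p6 genome. On 3000 simulated regions, all 3000 were recovered with their libraries.

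The members and gene lists were chosen with earlier results of these data known, so all values are descriptions and no test was run. Replicates are separate samples by their labels. Named were the 12 strongest regions by mean percentile of −log10 q, up to 3 genes of each list, Pdha1, and genes with more than 1 region; some items are not reported here. Alternatives were a minimum −log10 q of 2 or of 5, lists cut to equal length (4920 peaks), promoters within 1000 bp, region midpoints, overlap of 50%, joining within 1000 bp, autosomes, leaving out libraries, a stricter CpG definition (GC over 55%, ratio over 0.75) and the gene of the nearest start. Starts of all transcripts of coding genes were added after the data were seen.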

Additional observations from a re-analysis of the deposited data

How the results depend on the processing

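Most settings kept the values within their limits, which were 1.5 times for counts and the 95% interval for shares (exact binomial) and medians (order statistics, 172 to 216 bp for the distance, 52.2 to 57.4 and 32.9 to 38.6 for the percentiles). With lists of equal length the number of regions was 219, of which 148 overlapped the 767, the number of genes was 257, the CpG-rich share was 91.8% and the median percentiles were 79.7 and 69.0. At a −log10 q of at least 5 there were 650 regions, but only 85 overlapped the 767, since only 105 of the 767 had a PDH_Mutant 3 peak that strong and 303 a Wildtype 1 peak. The other regions entered because weaker peaks of the other libraries were removed. The CpG-rich share was then 94.0%, the median distance 161 bp and the percentiles 84.4 and 80.6. At a −log10 q of at least 2 there were 780 regions, 508 of them shared, with percentiles of 60.1 and 46.2. In all of these settings the percentiles were those of the full lists, so the removal of weak peaks raises the medians by itself. The CpG-rich share was 90.6% for promoters within 1000 bp, 83.7% with starts of all transcripts of coding genes (806 regions) and 78.1% by the stricter definition.

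Leaving out a library gave 865 to 1660 regions, 961 to 1862 genes, CpG-rich shares of 85.8% to 88.9%, median distances of 186 to 194 bp and median percentiles of 56.3 to 61.3 in Wildtype 1 and 36.2 to 41.9 in PDH_Mutant 3. The high end came without Wildtype 2, where regions of both Wildtype libraries and PDH_Mutant 3 joined the set. Without Wildtype 1 or PDH_Mutant 3 the rule gives no region. Overlap of 50% gave no separate count of genes. No paired analysis was possible because the results come from no test. The lists hold no reads, so what depth limits could not be computed.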
